A study of Haberlea rhodopensis with 10 samples.

Results

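The transcripts for calcium sensors and calcium-regulated kinases were followed in leaves of the resurrection plant Haberlea rhodopensis during desiccation and rehydration. A unigene, that is a transcript assembled from the reads, was taken as a member if its Swiss-Prot description, or its Nr description where Swiss-Prot gave none, named a CBL-interacting kinase, a calcineurin B-like protein, a calcium-dependent protein kinase, a CML calcium-binding protein or a calmodulin-like protein. It also had to reach an FPKM (fragments scaled by transcript length and by mapped library size) of at least 1 in at least 2 libraries. Of 142473 unigenes, 346 carried such a description and 266 of these reached the minimum. They comprised 17 calcineurin B-like proteins (CBL), 96 CML and calmodulin-like proteins (CML), 83 CBL-interacting protein kinases (CIPK) and 70 calcium-dependent protein kinases (CDPK), in 139 assembly clusters. Of the 80 left below the minimum, 44 reached it in 1 library and 36 in none, and the second-highest FPKM was 1.00 in the lowest member and 0.989 in the highest unigene left out. The minimum was met in all 10 libraries by 88 members and through the libraries of 1 stage only by 10.

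A rise of free calcium in the cytosol is among the earliest signals of a plant cell under water deficit, salt or cold, and it is read by proteins with EF-hand calcium-binding loops. CBL proteins have no enzyme activity of their own and act by binding and activating CIPKs, often at the plasma membrane or the tonoplast, where the pairs control ion transporters. CDPKs carry the EF hands and the kinase on 1 polypeptide, and in Arabidopsis several of them act on the anion channels and NADPH oxidases of guard cells. CMLs are relatives of calmodulin that pass the signal on by binding other proteins. The names used here, such as CML41 or CIPK6, are those of the best hit in another species, mostly Arabidopsis or rice, and contigs of 1 cluster can share reads, so the split of a level between contigs of a cluster is uncertain. Groups by name pool hits with the same number from any species. What is said of an Arabidopsis protein need not hold for every unigene of its group. No member sequences were used here.

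The plants had been propagated in vitro and grown in pots for about a year. Water was withheld until the plants were fully desiccated, which took 8 days or more, they were left dry for 10 days, and they were then watered and recovered for a week. Mature leaves were sampled at 5 stages with 2 libraries each, namely F (fresh, watered controls), D75 (slight dehydration), D20 (severe dehydration), DT (fully dry) and R (rehydrated), at relative water contents (RWC) of 90%, 75%, 20%, 6% and 90% in the treatment protocol, whereas GEO's characteristics state roughly 100% for the F and R samples and under 5% for those of DT. At least 4 plants were used per stage, but nothing says which plants went into which library. For qPCR of the RNA samples the authors name 2 independent biological replicates, without tying them to libraries. A p-value thus reflects the spread between the libraries alone, which may still be technical in part.

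Libraries held 4522835 (F replicate 2) to 12734565 fragments on unigenes. The D75 libraries stood apart from each other, with a correlation of 0.783 across unigenes on the log scale, against 0.887 to 0.954 in the other stages. Among the members, 34 differed over 4-fold between the D75 libraries, 31 of them higher in replicate 2, and 0 to 6 did so within any other stage. The D75 and D20 libraries also share 1 raw read length and the F, DT and R libraries another, so comparisons of D75 or D20 with F, and of DT with D20, cross that difference. Marker transcripts of leaf mesophyll (RuBisCO small chain and chlorophyll a-b binding proteins) summed to 579.6 and 949 scaled FPKM at D20, against 33529.9 and 32071 in F, and 40 of 49 fell. The list chosen for guard cells (SLAC1, FAMA, KAT1 and EPIDERMAL PATTERNING FACTOR) summed to 12.3 to 13.4 at D20 and 119.5 to 134 in F (17 of 21 fell, 1 rose). Most of that F sum came from EPIDERMAL PATTERNING FACTOR, with 112 and 101 in F and 3.42 and 3.43 at D20. That name is not specific to guard cells, so the sum is no measure of them. SLAC1-named unigenes had 9.74 and 10.3 in F and 8.08 and 6.04 at D20, and FAMA and KAT1 were also lower at D20. Epidermal markers summed to 162 to 167 at D20 and 682 to 739 in F (44 of 84 fell, 2 rose). Vascular markers summed to 77.5 to 110.3 and 23.5 to 53.8 (1 of 5 rose, none fell), nearly all from PHLOEM PROTEIN 2. The sieve element occlusion transcript was at 0 in both D20 and both DT libraries, and SWEET11, SWEET12 and SUC2 matched no unigene. In R the mesophyll sum was 35253 and 31159.5, the guard-cell sum 119 and 74.6, the epidermal sum 674 and 506, and the vascular sum 91.6 and 85.7. Whether cells of a type were fewer, held less RNA, or expressed these marker genes less was not tested. The part of these shifts in the results below was not tested either.

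Among the 4 families, the summed CIPK level differed most between dry and fresh leaves. Levels are given as scaled FPKM, which is FPKM recomputed from the counts with edgeR's TMM library scaling. The summed CIPK level was 448 and 409 in F, 334 and 472 in D75, 1226 and 1138 in D20, 802 and 872 in DT, and 498 and 476 in R. Both severely dry stages thus lay above all 6 other libraries. CDPK transcripts summed to 281 and 269.9 in F, 265 and 252 in D75, 398 and 409 in D20, 309.7 and 351 in DT, and 287 in each R library. CML transcripts summed to 1172 and 711 in F, 515 and 1314 in D75, 1689 and 1526 in D20, 1096 and 1126 in DT, and 1296 and 1028 in R, with overlap between most stages. The CBL sum was small throughout, at 46.7 to 58.5 at D75, the lowest stage, and 88.2 and 93.8 at DT, the highest.

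The log2 ratio of the sums at D20 over F was 1.46 for CIPK, 0.77 for CML, 0.55 for CDPK and 0.34 for CBL. It depended on the scaling, since with FPKM as deposited it was 0.80, 0.16, -0.12 and -0.33, with the sign turned for CDPK and CBL. Ratios between families within a library are free of that choice. The CIPK sum was 1.59 and 1.52 times the CDPK sum in F, 1.26 and 1.87 times in D75, 3.08 and 2.78 times in D20, 2.59 and 2.48 times in DT, and 1.74 and 1.66 times in R. The ratio at D20 and DT was above that of every library of the other stages. For the CBL sum over the CDPK sum the ratio stayed between 0.18 and 0.28 in the 10 libraries. Sensors over kinases gave 1.70 and 1.15 in F, 0.94 and 1.89 in D75, 1.09 and 1.04 in D20, 1.07 and 1.00 in DT, and 1.75 and 1.44 in R, so the dry stages lay below F and R without overlap and within the spread of D75. An exact permutation test of 2 libraries against 2 cannot go below a two-sided p of 0.333, and the ratios are given without one.

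**Figure D1:**
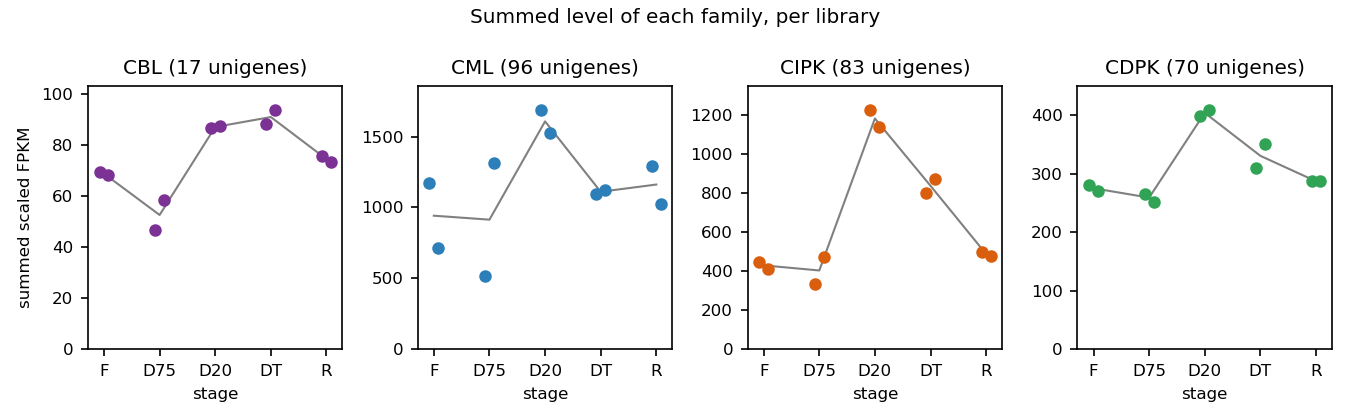
Summed scaled FPKM of each family (vertical axis, from 0) in each of the 10 libraries (points) by stage (horizontal axis), with a line through the stage means. The CIPK libraries at D20 (1226 and 1138) and DT (802 and 872) lie above all others, and the higher CBL and CDPK sums at D20 than in F turn to lower ones with FPKM as deposited.

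Members were tested one by one with edgeR's quasi-likelihood test, fitted on all 85267 unigenes at the FPKM minimum and all 10 libraries, and called at a Benjamini-Hochberg adjusted p below 0.05. At D20 against F, 65 members rose (24.4%, against 14.0% of all tested unigenes) and 50 fell (18.8%, against 17.8%). The median log2 fold change was 0.21 over the members and -0.33 over all tested unigenes. At DT against F, 49 members rose (18.4%, against 10.1% of all) and 40 fell (15.0%, against 12.4%), with medians of -0.0014 and -0.22. Of the 10 members that met the minimum in a single stage, 6 were among the calls at D20 and 5 among those at DT. The share of risers was higher among CMLs and CIPKs than among CDPKs and CBLs, a difference that was not itself tested. With 26 risers and 15 fallers of 96 CMLs, 27 and 20 of 83 CIPKs, 11 and 13 of 70 CDPKs, and 1 and 2 of 17 CBLs at D20, the family medians were 0.63, 0.75, -0.25 and -0.01. These risers and fallers lay in 14 and 10 of 54 assembly clusters for CML and 11 and 10 of 38 for CIPK. For CDPK they lay in 5 and 11 of 35, and for CBL in 1 and 1 of 12. At DT the numbers of risers and fallers were 17 and 11 for CML, 22 and 18 for CIPK, 9 and 10 for CDPK, and 1 and 1 for CBL.

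The balance of rises and falls depended on the fit. With median-of-ratios scaling in edgeR it moved little, to 64 members higher and 51 lower at D20 and 45 and 43 at DT. Of all 85267 tested unigenes, 11346 and 15885 were higher and lower at D20 then, and 7915 and 11460 at DT. On log2(FPKM + 0.1) as deposited, limma called 52 members higher and 71 lower at D20 and 42 higher and 56 lower at DT, of 266. Of all 85267 tested unigenes it called 9161 higher and 23811 lower at D20 and 8091 higher and 17334 lower at DT. That limma fit differs from the edgeR fit in test, added value and scaling together. It moved the median of all tested unigenes to -0.855 at D20 and -0.57 at DT, and the members' median to -0.339 and -0.408. Leaving out F replicate 1 or 2 gave 32 or 28 fallers at D20, and leaving out D20 replicate 1 or 2 gave 26 or 19. At DT there were 27 or 23 risers on leaving out F replicate 1 or 2 and 25 on leaving out DT replicate 2, with 20 or 19 fallers on leaving out F replicate 1 or 2 and 19 or 14 on leaving out DT replicate 1 or 2. The stage with the highest mean level was D20 for 90 of the 266 members (33.8%), as it was for 22.1% of all tested unigenes, while 7 of the 17 CBLs were highest at DT.

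**Figure D2:**
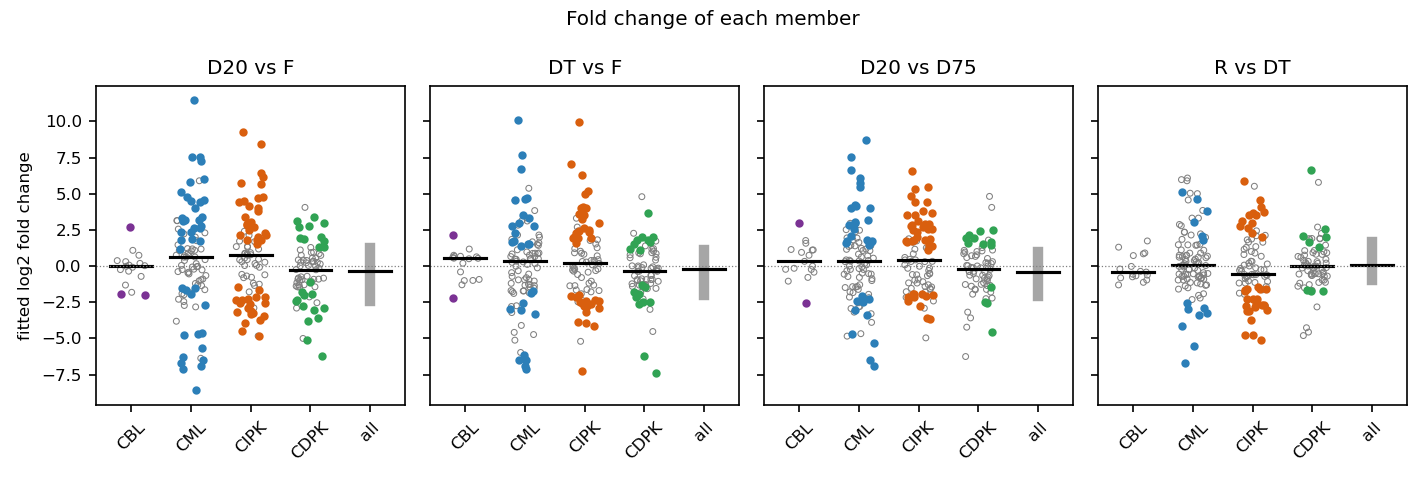
Fitted log2 fold change (vertical axis) of each member by family in 4 comparisons, with filled points for adjusted p below 0.05, open points for the rest, and black bars for medians. The grey bar spans the middle of all tested unigenes between the quartiles, and members of each of the 3 larger families lie on both sides of 0.

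Among the CBL sensors, the transcript named CBL4 (Unigene28489) rose. CBL4 is SOS3 of Arabidopsis, which recruits the kinase CIPK24 (SOS2) under salt stress. Its level was 3.22 and 3.68 in F, 1.78 and 4.15 in D75, 21.2 and 24.8 in D20, 14.3 and 16.1 in DT, and 6.74 and 5.57 in R. All 4 libraries of the dry stages were above all others, with a log2 fold change against F of 2.73 ± 0.46 for D20 (SE, adjusted p = 9.2e-04, edgeR) and 2.14 ± 0.45 for DT (adjusted p = 0.0056). The call for DT was lost without F replicate 1. Within the CBL sum, CBL4 made up 24.4% and 28.3% at D20 and 16.2% and 17.2% at DT, against 4.64% and 5.39% in F.

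Most of the CBL level belonged to the 9 CBL3-named unigenes, which made up 58.6% to 70.8% of it in every library and of which none was called at D20 or DT against F. CBL3 is a tonoplast sensor in Arabidopsis. Its most abundant contig, Unigene13476, had 13.3 and 13.4 in D20, 19.6 and 20.7 in DT, and 16.0 and 12.3 in F (adjusted p = 0.89 and 0.35). The rice CBL7-named CL13795.Contig2 fell to 1.56 and 1.12 at D20, against 3.63 and 6.82 in F (log2 -1.94 ± 0.61, adjusted p = 0.03), a call lost without F replicate 2 or either D20 library. CBL10, the partner of CIPK24 in Arabidopsis shoots, was matched by CL11309.Contig3 with 0.868 and 1.28 at D20, against 9.83 and 2.62 at D75 (log2 -2.52 ± 0.68, adjusted p = 0.018). That call was lost without D75 replicate 1 or either D20 library.

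Among the CMLs that rose, CML41-named CL17324.Contig3 reached the highest level at DT. In Arabidopsis, CML41 sits at plasmodesmata and acts in their closure during immunity. The level was 0.992 and 0.771 in F, 0 and 0.695 in D75, 169 and 113 in D20, 138 and 231 in DT, and 2.49 and 5.45 in R. The transcript was below 1 in fresh and slightly dehydrated leaves and above 100 in dry ones, with a log2 fold change against F of 7.30 ± 1.01 for D20 (adjusted p = 2.9e-04) and 7.69 ± 1.02 for DT (adjusted p = 4.2e-04). In R it fell again (log2 -5.53 ± 0.91 against DT, adjusted p = 0.0022). All 4 calls were kept with any 1 library left out. It supplied 12.6% and 20.5% of the summed CML level at DT, against 0.0846% and 0.108% in F.

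CML38, a sensor induced by wounding and low oxygen in Arabidopsis, had a similar course in CL14131.Contig2. No fragment was counted in either F library or in D75 replicate 1, D75 replicate 2 had 1.27, D20 had 49.4 and 36.6, DT 11.6 and 22.3, and R 1.28 and 2.00. With 3 fragments per library as the floor for F, D20 was at least 92.1-fold higher and DT at least 36.3-fold higher (adjusted p = 3.5e-04 and 0.0013). Rice CML18-named CL16307.Contig1 had 87.2 and 60.1 at D20 and 0.691 and 0 in F, a log2 rise of 7.51 ± 1.39 (adjusted p = 0.0017) that rests on 5 and 0 fragments in F. It was 12.13 without F replicate 1 and 6.69 without F replicate 2, and was called in both cases. At DT it had 13.9 and 5.80, still called against F (adjusted p = 0.027) but not without any 1 of the F or DT libraries.

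Further CML groups were picked by best-hit name after their values had been seen. CML36 activates a plasma membrane calcium pump in Arabidopsis, and 4 of its 5 unigenes rose at D20 and 2 at DT. Their sum was 340.0 and 392 at D20 and 136 and 205 at DT, against 151 and 43.8 in F, so that the F libraries themselves were far apart. All 3 unigenes named calmodulin-like protein 3 rose at D20, as did 4 of 5 CML15, 4 of 6 CML48 and 2 of 3 CML13, while the other CML15 unigene fell. The unigenes of the first 3 names lay in 2 assembly clusters each and those of CML13 in 1. CML13 serves as a myosin light chain in Arabidopsis, and its sum was 137 and 126 at D20, against 54.2 and 46.8 in F. CML24, encoded by a touch-induced gene in Arabidopsis, had no call, with 6.02 and 63.9 at D75 and 15.3 and 55.7 at D20 showing wide gaps between replicates.

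Among the fallers was rice CML29-named Unigene42853, the CML transcript with 1 of the 2 highest mean levels. It had 267 and 171 in F, 60.8 and 154 in D75, 4.34 and 1.14 in D20, 65.6 and 11.0 in DT, and 397 and 243 in R. D20 lay far below every other stage (log2 -6.31 ± 0.96 against F, adjusted p = 5.3e-04). At DT the decrease was smaller (log2 -2.52 ± 0.80, adjusted p = 0.039) and was lost without any 1 of F replicate 1, F replicate 2, DT replicate 2 or the R libraries. The 2 CML29-named unigenes together were 41.0% and 34.5% of the CML sum in F, 5.08% and 2.38% at D20, and 43.1% and 32.6% in R.

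CML44-named CL4108.Contig2 fell and was low in R as well. It had 18.1 and 8.87 in F, 38.2 and 24.6 in D75, 0.166 and 0.341 in D20, 1.68 and 1.59 in DT, and 0.696 and 2.06 in R. The R libraries overlapped the DT libraries and lay below the F libraries, a difference that was not called (log2 -3.27 ± 0.57, adjusted p = 0.098). At D20 the log2 fold change was -5.68 ± 0.68 against F (adjusted p = 1.3e-04) and -6.90 ± 0.70 against D75 (adjusted p = 1.2e-04). Calmodulin-like protein 11 fell in 4 of 6 unigenes at both D20 and DT, all contigs of the same cluster. Its CL9183.Contig3 had no fragment in either D20 library and 9.40 and 3.40 in F, at least 16.0-fold lower (adjusted p = 5.5e-04). CML21-named CL10912.Contig2 had 3.36 and 2.00 at D20 and 5.67 and 4.05 at DT, against 18.6 and 16.1 in F (log2 -2.69 ± 0.41 and -1.83 ± 0.39, adjusted p = 5.1e-04 and 0.006, the DT call being lost without DT replicate 2).

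CML49-named CL17343.Contig1, the most abundant CML, had no call at any stage. Its level was 116 and 71.1 in F, 99.9 and 119 in D75, 219 and 170.2 in D20, 165 and 205 in DT, and 122 and 126 in R. The D20 and DT libraries lay above all F libraries, by 1.05 ± 0.40 (adjusted p = 0.063) and 0.98 ± 0.40 (adjusted p = 0.098) on the log2 scale.

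Within the CIPK family the makeup of the transcripts differed between fresh and dry leaves. CIPK6, which with CBL4 directs a potassium channel to the plasma membrane in Arabidopsis, led the family in fresh leaves. The CIPK6-named unigenes made up 30.2% and 36.4% of the CIPK sum in F, 14.8% and 13.6% in D75, 0.595% and 1.01% in D20, 2.07% and 1.13% in DT, and 28.8% and 17.5% in R. CIPK2-named unigenes made up 5.63% and 5.43% in F, 21.6% and 19.1% at D20 and 36.5% and 23.3% at DT. The CIPK7 share was 36.0% and 28.5% in D20 and 15.9% and 18.2% in DT, against 8.22% and 4.31% in F, and the CIPK3 share was 14.3% and 24.7% in D20 and 17.2% and 26.8% in DT, against 5.59% and 6.65% in F. CIPK6 was thus the leading name in F, and CIPK7, CIPK2 and CIPK3 were the leading names in the dry stages. These shares are ratios within a library and do not depend on the scaling.

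**Figure D3:**
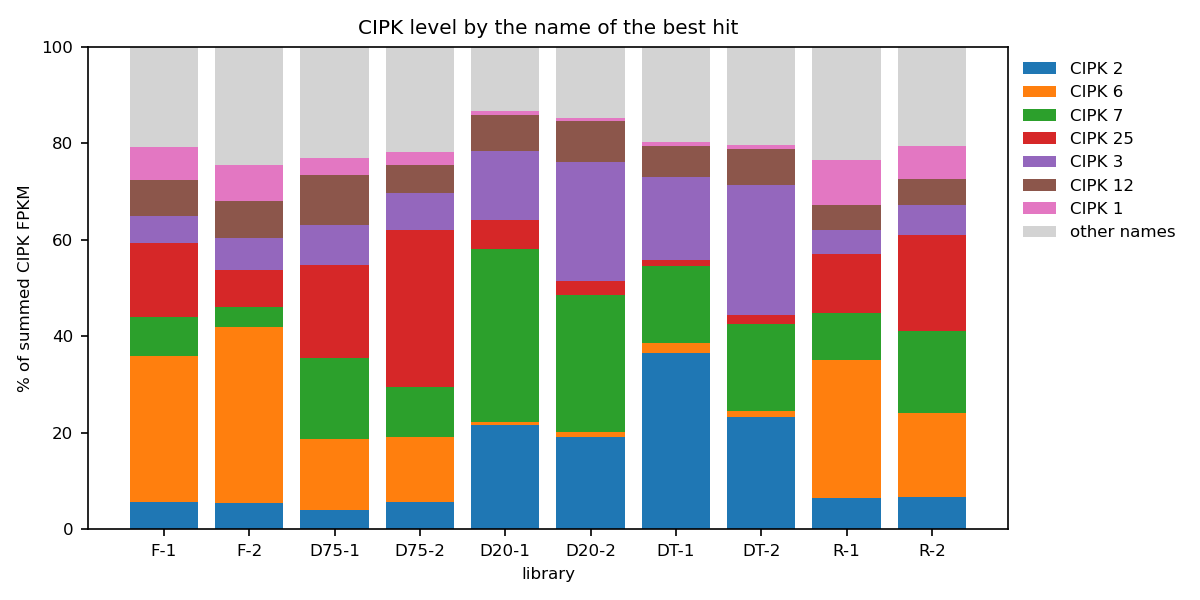
Share of the summed CIPK level (vertical axis, percent) held by the unigenes of each best-hit name in each library (horizontal axis, replicates 1 and 2 of each stage). The CIPK6 share is 30.2% and 36.4% in F and at most 2.07% in the D20 and DT libraries.

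CIPK2, for which rice gave the best hit, was scarce in F and abundant in dry leaves. In CL639.Contig4 it had 0.697 and 0.482 in F, 0.484 and 1.01 in D75, 38.7 and 26.4 in D20, 62.3 and 31.8 in DT, and 1.80 and 1.61 in R. On the log2 scale the rise was 5.76 ± 0.57 for D20 (adjusted p = 5.1e-05) and 6.29 ± 0.58 for DT (adjusted p = 9.6e-05), and the change of R against DT was -4.79 ± 0.53 (adjusted p = 3.3e-04). The short CL639.Contig6 of the same cluster, 218 nt long, had no fragment in F and was at least 20.4-fold higher at D20 and at least 32.8-fold higher at DT, and it may share reads with CL639.Contig4. Of the 6 CIPK2-named unigenes, which lie in 2 assembly clusters, 4 rose at D20 and 5 at DT.

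CIPK3 acts in abscisic acid and cold responses of Arabidopsis, and 9 of its 10 unigenes rose at D20 and 8 at DT. These 10 lie in 2 assembly clusters. CL1663.Contig6 had 9.29 and 15.3 at D20 and 4.38 and 5.71 at DT, against 0.495 and 0.560 in F (log2 4.53 ± 0.51 and 3.25 ± 0.50, adjusted p = 9.8e-05 and 9.3e-04). A contig of the same cluster whose best hit was rice CIPK32, CL1663.Contig4, was more abundant, with 2.41 and 1.83 in F, 3.44 and 8.67 in D75, 39.2 and 53.6 in D20, 31.1 and 38.0 in DT, and 4.40 and 3.57 in R. Its dry-stage libraries were separated from all others (log2 4.44 ± 0.52 at D20 and 4.02 ± 0.51 at DT, adjusted p = 1.1e-04 and 3.2e-04).

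CIPK7, a kinase that works with CBL1 in the cold response of Arabidopsis, supplied the most abundant CIPK contig, CL2022.Contig3. It had 14.3 and 4.49 in F, 1.45 and 11.0 in D75, 323 and 185 in D20, 39.9 and 61.9 in DT, and 18.0 and 42.2 in R. The level was highest at D20 (log2 4.75 ± 0.91 against F, adjusted p = 0.0021), and the value at DT was not called against F (2.43 ± 0.82, adjusted p = 0.051) and overlapped R. CL2022.Contig1 of that cluster rose at both stages, with 30.8 and 32.7 at D20 and 13.9 and 16.1 at DT, against 2.61 and 1.20 in F (adjusted p = 1.7e-04 and 0.0014).

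CIPK6-named CL17652.Contig6 was the reverse of these. Its level was 104 and 106 in F, 46.3 and 40.6 in D75, 3.89 and 3.44 in D20, 9.02 and 5.08 in DT, and 119 and 69.0 in R. The values at D75 were intermediate and not called against F, while the log2 fold change against F was -4.83 ± 0.49 for D20 (adjusted p = 5.5e-05) and -3.89 ± 0.47 for DT (adjusted p = 2.5e-04), and R rose by 3.74 ± 0.46 against DT (adjusted p = 5.3e-04). These 3 calls and that of D20 against D75 (log2 -3.56 ± 0.46, adjusted p = 3.9e-04) were kept with any 1 library left out. CL17652.Contig1 of the same cluster took the same direction at D20 (log2 -3.94 ± 0.80, adjusted p = 0.003) and DT (log2 -4.13 ± 0.81, adjusted p = 0.0038, lost without DT replicate 2). Of the 6 CIPK6-named unigenes, 3 of the same cluster fell at D20, and 1 of another cluster rose at DT.

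CIPK1, which binds CBL1 and CBL9 in Arabidopsis and acts in osmotic and abscisic acid responses, fell in 4 of 5 unigenes at D20. All 5 are contigs of the same cluster. CL2451.Contig5 had 10.9 and 15.0 in F, 2.01 and 3.07 in D75, 0.663 and 0.494 in D20, 2.51 and 1.83 in DT, and 20.5 and 13.9 in R. It fell at every stage of drying, with log2 fold changes against F of -2.35 ± 0.42 for D75, -4.47 ± 0.49 for D20 and -2.58 ± 0.43 for DT (adjusted p = 0.021, 7.9e-05 and 0.0015), the D75 call being lost without F replicate 2. All 3 CIPK14-named unigenes fell at D20, as did 4 of 6 named CIPK8, a kinase of nitrate responses, and 2 of 3 named CIPK24, the kinase of the salt-tolerance pathway. The unigenes of these names lay in 2, 5 and 1 assembly clusters, in that order. Unigene15117, a CIPK8, had 1.54 and 0.394 at D20, against 3.67 and 6.44 in F (log2 -2.35 ± 0.65, adjusted p = 0.016, lost without F replicate 2 or D20 replicate 2).

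CIPK25 and CIPK23 were each matched by a contig called lower at DT and not at D20 against F. CIPK25-named CL7191.Contig3 had 51.5 and 23.3 in F, 34.7 and 122 in D75, 22.8 and 6.82 in D20, 1.94 and 2.99 in DT, and 46.1 and 71.2 in R. It was called at DT (log2 -3.92 ± 0.75 against F, adjusted p = 0.0033, lost without DT replicate 1) and not at D20 against F (adjusted p = 0.14), although 2 other CIPK25-named unigenes rose at D20. CIPK23, which activates a root potassium channel and a nitrate transporter in Arabidopsis, was matched by Unigene943 with no fragment in either DT library, 2.41 and 1.41 at D20, and 6.05 and 7.33 in F. It was at least 5.60-fold lower at DT than in F (adjusted p = 0.0018), a limit set by 3 fragments per library. Of the 9 CIPK23-named unigenes, 1 rose and 3 of the same cluster fell at D20.

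**Figure D4:**
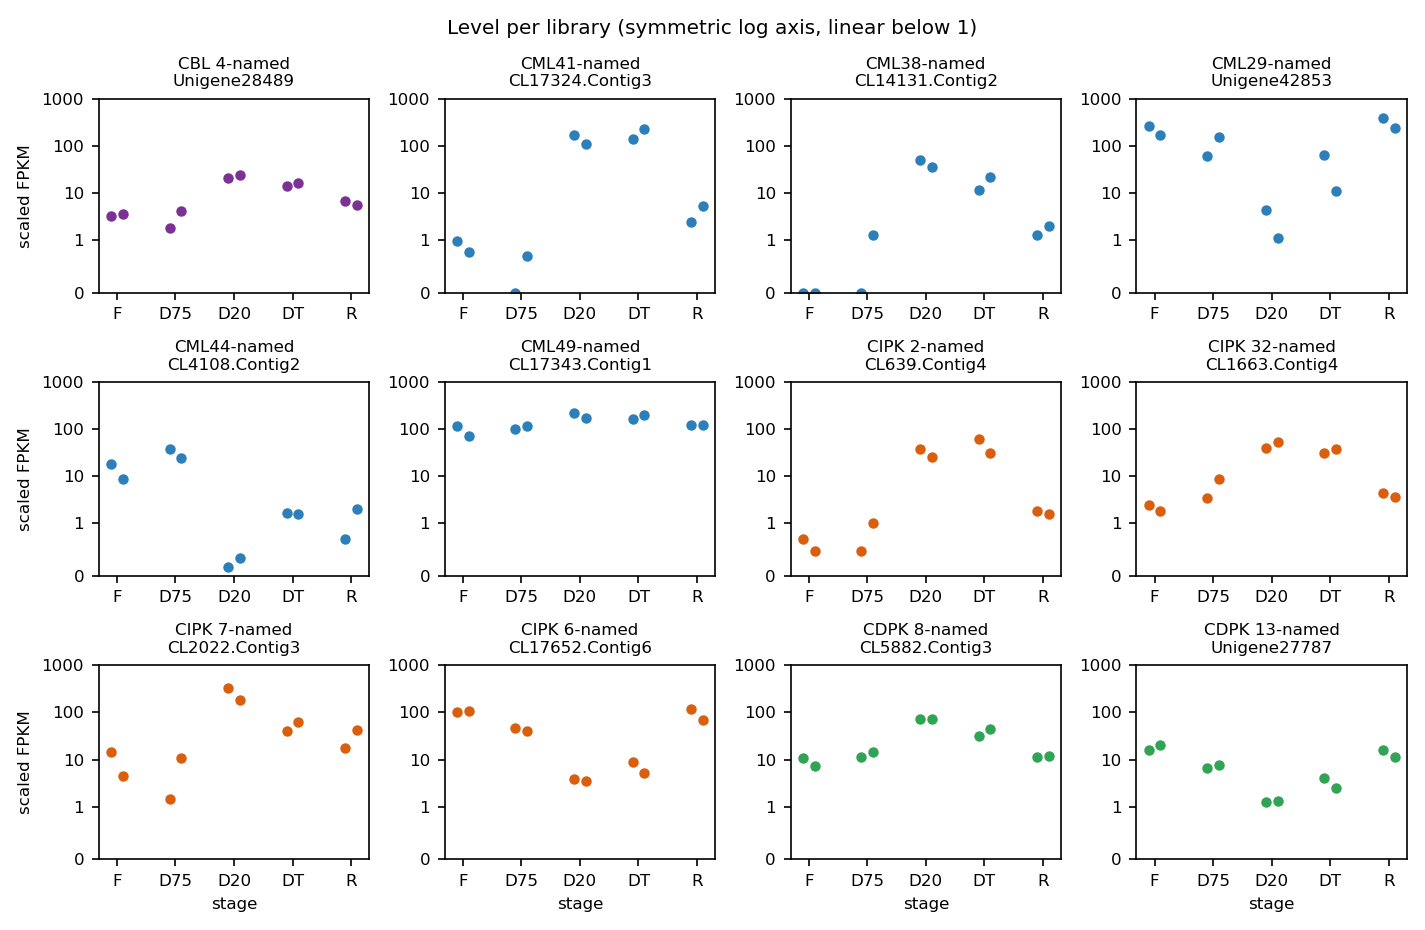
Scaled FPKM (vertical axis, logarithmic above 1 and linear below) of 12 members in both libraries of each stage (horizontal axis), coloured by family. CML41, CML38, CIPK2, CIPK32, CIPK7, CBL4 and CDPK8 are high at D20, CML29, CML44, CIPK6 and CDPK13 are low there, and CML44 stays low in R.

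Among the CDPKs, the family with the lowest share of calls of the 3 larger ones, the risers were led by CDPK8. In Arabidopsis this kinase phosphorylates a catalase in guard cells during abscisic acid signalling. All 5 CDPK8-named unigenes rose at both D20 and DT, 4 of them contigs of the same cluster. CL5882.Contig3 had 11.0 and 7.37 in F, 11.2 and 14.4 in D75, 72.8 and 73.8 in D20, 31.1 and 44.9 in DT, and 11.3 and 11.9 in R. Its log2 fold change against F was 2.99 ± 0.41 for D20 (adjusted p = 2.8e-04) and 2.04 ± 0.39 for DT (adjusted p = 0.0034), and R lay below DT by a log2 value of -1.71 ± 0.39 (adjusted p = 0.012, lost without DT replicate 2 or either R library). The CDPK8 share of the CDPK sum was 36.1% and 32.2% at D20 and 27.8% and 27.2% at DT, against 10.2% and 7.33% in F. The scarcer CDPK8-named Unigene704 had 5.64 and 6.99 at DT, against 0.803 and 0 in F (2 and 0 fragments), and its call at DT was lost without any 1 of the F or DT libraries, that at D20 (3.28 and 5.23, adjusted p = 0.047) without any 1 of the F, D20, DT or R libraries.

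CDPK1-named CL10513.Contig3 had 18.3 and 18.8 at D20 and 8.52 and 12.1 at DT, against 2.89 and 2.92 in F (log2 2.67 ± 0.39 and 1.83 ± 0.38, adjusted p = 4.4e-04 and 0.0055). Another contig of its cluster fell at D20, the only cluster called both ways there. Potato CDPK4, which phosphorylates an NADPH oxidase in that species, was the best hit of CL15612.Contig2, with 13.3 and 12.2 at D20 and 2.97 and 3.50 in F (log2 1.98 ± 0.36, adjusted p = 0.0015). At DT the change was not called (log2 1.04 ± 0.35, adjusted p = 0.052).

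CDPK13, which restrains inward potassium channels of guard cells in Arabidopsis, fell. Unigene27787 had 15.8 and 20.0 in F, 6.73 and 7.57 in D75, 1.26 and 1.33 in D20, 3.98 and 2.46 in DT, and 16.1 and 11.6 in R. F and R lay above the 6 libraries of the drying stages, with log2 fold changes against F of -3.78 ± 0.43 for D20 (adjusted p = 9.5e-05) and -2.47 ± 0.40 for DT (adjusted p = 0.0012). Unigene27785, also CDPK13, had 1.76 and 3.11 at DT and 6.79 and 6.61 in F (log2 -1.46 ± 0.40, adjusted p = 0.022), and this call was lost without F replicate 1, F replicate 2 or DT replicate 1. CDPK26-named CL11480.Contig1 (log2 -1.76 ± 0.50, adjusted p = 0.019) and the carrot CDPK CL4943.Contig8 (log2 -1.94 ± 0.49, adjusted p = 0.01) fell at D20, both calls being lost on leaving out either D20 library, the first also without F replicate 1 and the other also without F replicate 2. The sum of the list chosen for guard cells was lower in the same libraries, mostly through EPIDERMAL PATTERNING FACTOR, as given above. Any part of guard cells in the CDPK13 values was not tested.

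CDPK3-named CL7582.Contig1, the most abundant CDPK, had no call in any comparison. It had 35.3 and 23.5 in F, 42.5 and 38.3 in D75, 35.6 and 38.7 in D20, 26.8 and 33.0 in DT, and 31.1 and 33.0 in R, and the D20 libraries lay just above those of F and the DT libraries between them (adjusted p = 0.49 at D20 and 0.98 at DT against F).

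Slight dehydration gave few calls. At D75 against F no member rose (0.671% of all tested unigenes did) and 2 fell (0.752%, against 1.16% of all), CIPK1-named CL2451.Contig5 and calmodulin-like protein 1, Unigene10942. Unigene10942 had 7.05 and 9.02 in F, 0.0925 and 0.280 in D75, 0.0681 and 0.0698 in D20, 0 and 0.153 in DT, and 4.96 and 0.997 in R. It was thus already near its dry-stage level at D75 (log2 -5.41 ± 0.88, adjusted p = 0.016). At an unadjusted p below 0.05, 26 of 266 members were higher and 28 lower. Of all 85267 tested unigenes, 14405 passed that limit in either direction. DESeq2 called 6 members higher and 7 lower, beside 1508 and 1944 of the 57164 unigenes with an adjusted p in that fit. Without D75 replicate 1 edgeR called 16 higher and 5 lower, without D75 replicate 2 it called 13 and 42, and without F replicate 2 the 2 fallers were lost.

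From slight to severe dehydration, that is at D20 against D75, 64 members rose (24.1%, against 10.7% of all tested unigenes) and 27 fell (10.2%, against 14.5%). CIPKs supplied 30 of the risers and 11 of the fallers, CMLs 24 and 10, CDPKs 9 and 5, and CBLs 1 and 1. They lay in 12 and 10 assembly clusters for CIPK, 14 and 9 for CML, 5 and 4 for CDPK, and 1 and 1 for CBL. The risers numbered 41 without either D20 library, and the fallers 42 without D75 replicate 1, 17 without D20 replicate 1 and 11 without D20 replicate 2. The lowest p-values per family belonged to CML41, CIPK2, CDPK8 and CBL4 among the risers and to CML44, CIPK6, CDPK13 and CBL10 among the fallers, named by the contigs described above.

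The comparisons of D20 with D75 and of DT with F share no library, and each lies within 1 raw read length. Both come from the same fit to all 10 libraries, however. They share its scaling and its estimate of the spread, so the calls are not independent. Of the 64 members higher at D20 than at D75, 41 (64.1%) were also higher at DT than in F, which is 83.7% of the 49 risers there. Of the 27 lower ones, 21 (77.8%) were also lower at DT, 52.5% of the 40 fallers there. Over all tested unigenes these shares were 60.6% and 64.4% for rises and 52.4% and 61.0% for falls. None of the members was called in opposite directions.

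**Figure D5:**
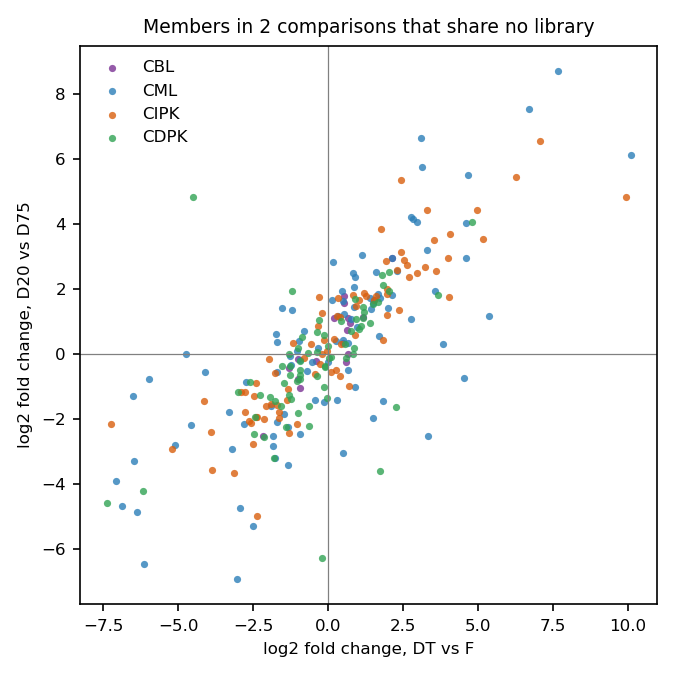
Log2 fold change of each member at D20 against D75 (vertical axis) and at DT against F (horizontal axis), coloured by family. The 2 comparisons share no library, and 41 members were called higher and 21 lower in both.

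Between severe dehydration and the dry state no member was called in either direction with edgeR (0.220% of all tested unigenes rose and 0.108% fell at DT against D20). At an unadjusted p below 0.05, 12 of 266 members were higher and 29 lower. Of all 85267 tested unigenes, 11088 passed that limit in either direction. DESeq2 called 3 members higher and 6 lower, beside 1054 and 922 of the 38979 unigenes with an adjusted p in that fit. Without D75 replicate 1 edgeR called 5 higher and 20 lower, and without D75 replicate 2 the same numbers. CIPK7, CL2022.Contig3, had 39.9 and 61.9 at DT and 323 and 185 at D20 (log2 -2.32 ± 0.81, adjusted p = 0.25), and CML29-named Unigene42853 had 65.6 and 11.0 at DT and 4.34 and 1.14 at D20 (log2 3.80 ± 0.87, adjusted p = 0.09).

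On rehydration members changed in both directions. At R against DT, 25 members rose (9.40%, against 9.30% of all tested unigenes) and 33 fell (12.4%, against 5.96%). CIPKs made up most of the fallers, with 22 of 83 lower and 13 higher, against 8 lower and 6 higher of 96 CMLs, 3 lower and 6 higher of 70 CDPKs, and no call among the CBLs. The CIPK fallers lay in 10 assembly clusters and the CIPK risers in 8. Of those fallers, 7 were contigs of CL1663 and 6 of CL639. CIPK2, CIPK3, CIPK32, CML41 and CML38 were among those that fell, and CIPK1, CIPK6, CIPK25, CML29, CML21 and CDPK13 among those that rose, with the library values given above. There were 49 risers without either D75 library, 13 or 6 on leaving out DT replicate 1 or 2, and 8 on leaving out R replicate 1. Leaving out DT replicate 1 or 2 gave 20 or 12 fallers, and leaving out R replicate 1 or 2 gave 6 or 10.

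Rehydrated leaves were not distinguished from fresh ones by any member. At R against F edgeR called none higher or lower (0.0293% and 0.00938% of all tested unigenes were). At an unadjusted p below 0.05, 17 of 266 members were higher and 10 lower. Of all 85267 tested unigenes, 7462 passed that limit in either direction. DESeq2 called 3 members higher and 2 lower, beside 412 and 216 of the 34020 unigenes with an adjusted p in that fit. Without D75 replicate 1, and likewise without D75 replicate 2, edgeR called 11 higher and 3 lower. Members such as CML41 (2.49 and 5.45 in R, 0.992 and 0.771 in F) and CBL4 (6.74 and 5.57 in R, 3.22 and 3.68 in F) did not overlap between the stages but missed the threshold.

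Among other genes of calcium signalling, falls outnumbered rises. Of 280 tested unigenes for calcium channels, pumps, calmodulin, other kinases and outputs, 39 rose and 88 fell at D20 against F, and 26 rose and 72 fell at DT, beside the 14.0% and 17.8% of all tested unigenes called at D20 and the 10.1% and 12.4% at DT. The fallers included 14 of 23 CDPK-related kinases (CRK), 23 of 40 glutamate receptor-like channels, 10 of 20 annexins and 7 of 11 respiratory burst oxidases, the NADPH oxidases that CDPKs and CIPKs act on in Arabidopsis. Their median log2 fold changes at D20 were -2.84, -2.29, -1.48 and -4.31. No CRK and no respiratory burst oxidase rose, while 6 glutamate receptors and 3 annexins did. The CRK fallers were all named CRK1 or CRK7, were scarce (means of 0.467 to 3.38) and were in part contigs of the same cluster. At D20 the most abundant CRK, CRK3-named CL9107.Contig4, was not called (log2 -0.91 ± 0.37, adjusted p = 0.082). Nor was the most abundant oxidase, CL13882.Contig2 (log2 -0.39 ± 0.59, adjusted p = 0.63). Calmodulin itself, the general calcium sensor, rose in 7 and fell in 1 of 29 unigenes at D20. Of the ion transporters that CBL-CIPK pairs act on in Arabidopsis, neither of the 2 AKT1 potassium channels was called at D20 against F and 1 of 5 SOS1 sodium/proton exchangers was lower. Without single libraries the risers at D20 numbered 21 to 52 and the fallers 50 to 107.

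Some of these, chosen after their values were seen, show the range. The vacuolar cation/proton exchanger 1c, CL5142.Contig3, which moves calcium into the vacuole, had 362 and 317 at D20 and 171 and 299.9 at DT, against 82.4 and 68.6 in F (log2 2.17 ± 0.45, adjusted p = 0.0034 at D20). The scarcer CL12872.Contig1 of the same name fell, with 0.0639 and 0 at D20 and 1.83 and 0.681 in F (adjusted p = 0.018). Of the 11 tested exchangers, 1 rose and 3 fell at D20. The guard-cell anion channel SLAC1, a CDPK target in Arabidopsis, was matched by Unigene7391 with 0.555 and 0.413 at D20 and 8.33 and 8.37 in F (log2 -4.09 ± 0.46, adjusted p = 9.3e-05). The SLAC1-named unigenes were called in both directions, since Unigene5623 had 3.06 and 2.34 at D20 and 0.232 and 0.482 in F (log2 2.94 ± 0.62, adjusted p = 0.0038), and the sum over all 6 of them was 8.08 and 6.04 at D20 and 9.74 and 10.3 in F. Their relative SLAH1, CL5988.Contig1, had 32.3 and 17.2 at D20 and 27.1 and 15.5 at DT, against 0.222 and 0.205 in F (log2 6.79 ± 0.70 and 6.58 ± 0.70, adjusted p = 6.2e-05 and 1.6e-04). Annexin D2, CL5793.Contig1, a calcium-dependent membrane-binding protein, had 310.3 and 269 at D20, against 62.8 and 66.0 in F (log2 2.17 ± 0.51, adjusted p = 0.0074). The scarcer Unigene11088, also named annexin D2, fell, with 0 in both D20 libraries and 1.38 and 9.56 in F (adjusted p = 0.0069).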

How the data were processed

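The authors trimmed paired reads with SeqPrep and Sickle, assembled all of them de novo with Trinity, and name RSEM for abundances; the aligner and the strand setting are not given in the sources used here. The deposited counts are whole fragments per unigene and library. The deposited FPKM is the count over unigene length and library total; recomputing it gave 100.0% of values within 0.0001.

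Counts were fitted with edgeR 4.0.16 in R 4.3.3 (TMM, glmQLFit and glmQLFTest, 1 coefficient per stage, 10 libraries) for the 85267 unigenes reaching FPKM 1 in 2 or more libraries, with Benjamini-Hochberg adjustment over them and calls below 0.05. Each standard error is |log2 fold change| divided by the square root of F. A floor of 3 fragments is 2.4e-05% to 6.6e-05% of a library and, like every count, covers counting error only.

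Members and lists were chosen with earlier results of these data known. Named in each family were the 2 highest mean levels, up to 3 called members per direction at D20 and DT against F (mean of at least 5, largest fold, 1 per cluster), and the lowest p per direction elsewhere. Alternatives were DESeq2 1.42.0, limma 3.58.1 on log2(FPKM + 0.1) or log2(FPKM + 1), median-of-ratios scaling, no filter, the 4 libraries compared, a replicate block, sums per assembly cluster, each library left out, and, added after the data were seen, FPKM as deposited for the family sums.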

Additional observations from a re-analysis of the deposited data

How the results depend on the processing

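Of 69 calls of named members, 48 were kept with every library left out and 46 under every alternative, and none changed direction. Without the filter the members higher and lower numbered 9 and 5 at D75 against F, 2 and 2 at R against F, and 3 and 8 at DT against D20. Of all 141376 unigenes in that fit, 3334 and 2746, 674 and 420, and 902 and 953 were higher and lower, in that order. DESeq2 called 6 and 7 at D75, 3 and 2 at R and 3 and 6 at DT against D20. In limma, 10 were lower at D75 and 1 at R on log2(FPKM + 1), and 1 at DT against D20 on log2(FPKM + 0.1). Of all 85267 tested unigenes, 3866, 193 and 69 were lower there, in that order. Fits to the 4 libraries compared gave 0 lower at D75 against F, 9 higher and 4 lower at R against F, 18 and 5 at D20 against D75, and 50 higher at R against DT. Over all 85267 tested unigenes they gave 0 lower, 1146 and 1151, 2075 and 2711, and 12492 higher, in that order. Sums per assembly cluster covered 55159 clusters, 139 of them with members. Of the 139, 1 was higher at D75 against F, 32 and 23 were higher and lower at D20 against F, and 25 and 19 at DT against F. At D20 against D75 there were 29 and 15, and 16 were lower at R against DT. Of all 55159, the numbers were 407 higher at D75 against F, 7168 and 8804 at D20 against F, and 5435 and 6313 at DT against F. At D20 against D75 they were 5350 and 7183, and 3302 were lower at R against DT. Of the other calcium genes, these sums gave 25 and 42 at D20 and 34 lower at DT.

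The log2 ratio of family sums at D20 over F was 0.25 for CBL and 0.47 for CDPK with median-of-ratios scaling, and -0.33 for CBL, 0.16 for CML, 0.80 for CIPK and -0.12 for CDPK with FPKM as deposited, where CBL and CDPK turned sign. The cause of these differences was not tested, beyond that F replicate 2 and the D20 libraries have the most unlike TMM factors (1.48, and 0.801 and 0.771).

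Leaving out 1 library, members higher and lower ranged over 0 to 16 and 0 to 42 at D75 against F, 45 to 82 and 19 to 66 at D20 against F, 23 to 66 and 14 to 57 at DT against F, 0 to 11 and 0 to 3 at R against F, 41 to 90 and 11 to 42 at D20 against D75, 0 to 5 and 0 to 20 at DT against D20, and 6 to 49 and 6 to 49 at R against DT. The other calcium genes ranged over 21 to 52 and 50 to 107 at D20 and 11 to 37 and 30 to 95 at DT. The log2 ratios of sums ranged over 0.33 to 0.35 for CBL, 0.46 to 1.18 for CML, 1.40 to 1.53 for CIPK and 0.52 to 0.58 for CDPK.

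Same-numbered libraries did not deviate together (correlations of -0.189 to 0.0752 between stages). With 2 libraries per stage, these correlations cannot show whether same-numbered libraries shared plants or a batch. The sources used here do not state it either, so any pairing is unknown. With a replicate block, 63 members were higher and 45 lower at D20 against F and 44 and 34 at DT against F. Of all 85267 tested unigenes, 10919 and 13820 were higher and lower at D20, and 7613 and 9711 at DT. Of the named calls only that of Unigene704 at D20 was lost with this block. With 2 libraries per stage and 4522835 fragments in the shallowest, changes of scarce members are the least certain.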
